A study of Homo sapiens with 6 samples.

Results

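The loci described here are transcribed stretches that carry no gene symbol in the deposited table and lie wholly inside the span of a single named gene, called the host below. The loci were selected on their values and position: 3 or more of the 6 libraries had to reach a normalised value of 10, and the hg38 coordinates had to fall within exactly 1 named row. This gave 1260 loci in 1120 hosts, out of 47577 rows in the table, of which 17568 passed the same minimum. Of the 9571 unnamed loci nested in a single named row, 13.2% thus passed. The libraries were polyA plus RNA-seq of OVCAR3, an established line from a high-grade serous ovarian adenocarcinoma. The labels name no engineered change in the cells, of which 3 cultures received DMSO, the solvent, and 3 received 200 nM THZ531, a covalent inhibitor of the transcriptional kinases CDK12 and CDK13, for 6 h. The treatment protocol in the labels names THZ1, whereas titles and treatment fields name THZ531, and the groups follow the latter. OVCAR3 is a single line, and the labels count the cultures as biological repeats.

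Most human genes are interrupted by introns, which are removed from the precursor RNA by splicing. Introns contain sequences that resemble the signals of a gene end, chiefly the hexamer AATAAA and its variant ATTAAA, at which the cleavage and polyadenylation machinery cuts the transcript and adds a polyA tail. CDK12 and CDK13 phosphorylate the tail of RNA polymerase II and are known to support elongation through long genes and to restrain the use of such sites inside introns. An RNA that ends in an intron yields a transcript without the downstream exons of the gene. Libraries selected for polyA hold RNAs with a tail, and can also hold RNAs with a stretch of adenines encoded in the genome.

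The nested loci were short and low compared with their hosts. Their length had a median of 2120.5 bases (26 to 238206), and their mean value over the 6 libraries had a median of 30.3 (5.88 to 48360), as normalised reads that are not corrected for length. The hosts had a median length of 71033 bases, against 27951 for all expressed named rows, and a median mean value of 1652 against 750.3. A host held a single nested locus in 1000 cases, 2 loci in 106 cases and 3 or more in 14. The file gives no strand. The strand was therefore inferred from the identifiers, which follow position along each strand. This rule returned the annotated strand for 99.7% of 22270 named loci and 96.7% of 1525 unnamed loci spanning an annotated gene. By this rule 809 loci lay on the strand of the host and 291 on the opposite strand, and 160 remained without a strand. Of the 809, 603 lay wholly in introns, 179 overlapped an annotated exon of the host and 27 lay outside its annotated transcripts, whereas 234 of the 291 opposite loci overlapped an exon. GENCODE lists a further gene over 406 of the 1260 loci, among them a pseudogene at 49, whose reads cannot be told apart from those of the locus. The 406 include loci named below in MED13, SHB, ITGB5, BIRC6, MSI2, PAFAH1B1, SUZ12P1 and FTX, each overlapped on its own strand. Whether counting used strand, and how reads over both locus and host were assigned, is not given in the sources used here, so reads of an opposite-strand locus over a host exon may belong to either.

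The ends of the loci are shown first because they share features that the selection did not use. The following windows hold the last 100 bases of a locus and the 50 bases after its end, read 5ʹ to 3ʹ on the strand of the locus, from hg38. Capitals mark AATAAA or ATTAAA. Each locus lies in an intron of its host on the same strand. PAX8, SPRED2, MED13 and POLH were chosen for a hexamer shortly before the end, EGFR for adenines that follow the end, and CUL1 for having neither hexamer.
PAX8 locus, chr2:113274086-113274235, minus strand: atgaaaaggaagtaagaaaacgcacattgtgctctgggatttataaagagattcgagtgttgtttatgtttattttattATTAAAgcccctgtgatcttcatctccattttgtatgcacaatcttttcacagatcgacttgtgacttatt
SPRED2 locus, chr2:65341928-65342077, minus strand: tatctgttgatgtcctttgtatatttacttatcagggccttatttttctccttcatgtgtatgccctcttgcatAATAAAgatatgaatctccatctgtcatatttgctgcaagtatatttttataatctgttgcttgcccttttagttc
MED13 locus, chr17:62003650-62003799, minus strand: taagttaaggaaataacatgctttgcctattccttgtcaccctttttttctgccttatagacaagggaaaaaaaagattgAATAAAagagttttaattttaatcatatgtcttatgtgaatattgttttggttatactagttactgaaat
POLH locus, chr6:43591931-43592080, plus strand: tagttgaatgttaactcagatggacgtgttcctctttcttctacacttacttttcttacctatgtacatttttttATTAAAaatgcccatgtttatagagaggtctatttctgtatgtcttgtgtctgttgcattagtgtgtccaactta
EGFR locus, chr7:55027876-55028025, plus strand: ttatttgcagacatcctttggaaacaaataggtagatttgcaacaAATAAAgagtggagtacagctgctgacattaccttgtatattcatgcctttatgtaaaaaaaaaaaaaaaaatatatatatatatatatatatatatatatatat
CUL1 locus, chr7:148731463-148731612, plus strand: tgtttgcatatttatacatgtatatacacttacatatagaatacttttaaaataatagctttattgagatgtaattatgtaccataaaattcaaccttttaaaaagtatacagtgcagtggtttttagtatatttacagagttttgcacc

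In the SPRED2 window AATAAA began 26 bases before the end of the locus and in MED13 20 bases, while PAX8 and POLH carried ATTAAA in the same stretch. In the EGFR window AATAAA began 55 bases before the end and the genome continues with a run of adenines. Such features were common among the loci. AATAAA, searched on the strand of the locus, was found in the last 50 bases of 147 of the 809 same-strand loci (18.2%) and of 75 of the 291 opposite-strand loci (25.8%). Over 2452859 windows of 50 bases tiled across the same hosts it was found in 3.38% on the host strand and 4.77% on the other. ATTAAA was present in the last 50 bases of 7.29% of same-strand loci, against 2.56% of the windows. The letters of the 2 hexamers can overlap within a longer match, and each was counted on its own. In the 50 bases after the end, AATAAA occurred in 10.4% of same-strand and 3.78% of opposite-strand loci.

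A run of 6 adenines lay wholly within the 20 bases after the end in 474 of 809 same-strand loci (58.6%) and in 97 of 291 opposite-strand loci (33.3%). The same run was found in the first 20 bases of 1.72% of the tiled windows on the host strand and 2.44% on the other. Of the 809 loci, 21 had both a hexamer in the last 50 bases and an adenine run after the end, 453 had the run alone, 173 the hexamer alone and 162 neither. The adenine runs were chosen for counting after the first windows had been seen.

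**Figure D1:**
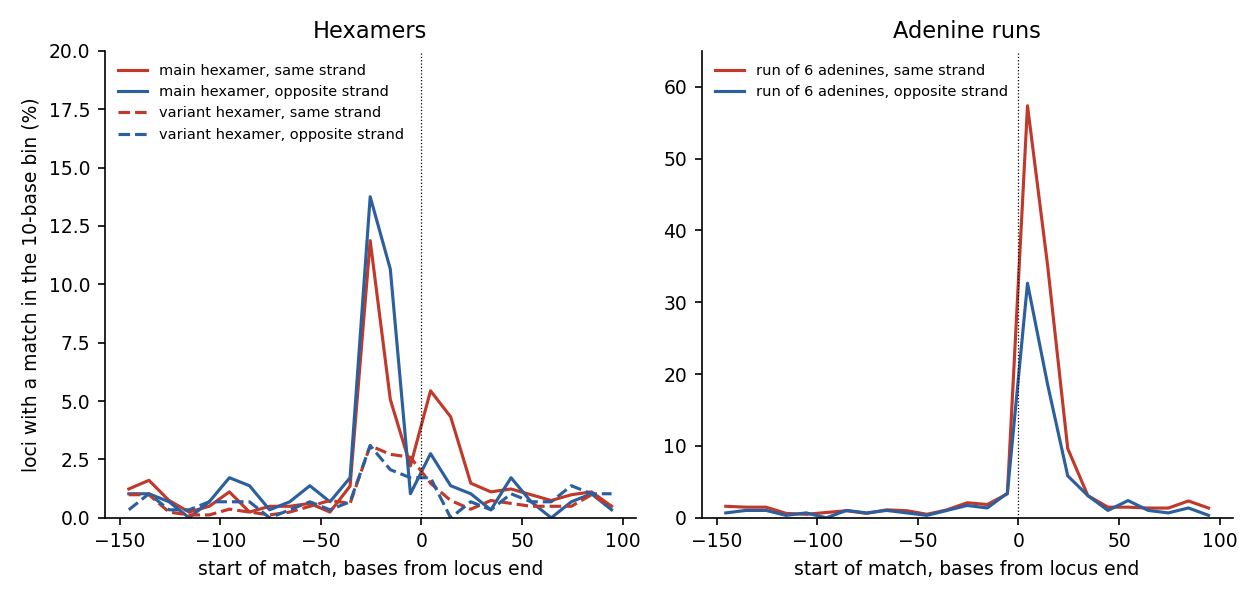
Percent of nested loci with a match that starts in each bin of 10 bases, against the distance from the locus end in bases (0 is the first base after the end), for 809 same-strand loci (red) and 291 opposite-strand loci (blue), with the variant hexamer (ATTAAA) dashed. The main hexamer (AATAAA) peaks at 11.9% and 13.7% in the bin from 30 to 21 bases before the end, and runs of 6 adenines reach 57.4% and 32.6% in the first bin after it.

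The comparison of THZ531 with DMSO asks how loci within genes responded when CDK12/13 were inhibited. Calls were made with limma on log2(value + 1), and needed a change of 1.5-fold or more together with p not above 0.05 before adjustment. Among the 1260 nested loci, 508 were called up (40.3%) and 259 down (20.6%). Of all 17568 loci tested, 15.7% were called up and 23.9% down (39.5% either way), and of those with a symbol 13.3% and 23.7% (37.0%). Named loci that likewise lie inside a single named row were called up in 16.3% and down in 24.1% of cases (40.4%), and unnamed loci inside no named row in 19.8% and 31.1% (50.9%). All 3 THZ531 values lay above all 3 DMSO values at 540 nested loci and below them at 280, against 36.0% and 35.7% of all loci. The median log2 fold change was 0.44 over the nested loci and -0.01 over all loci. With a Benjamini-Hochberg adjusted p in limma, 778 nested loci had a value of at most 0.05, whatever their fold. The same count over all loci tested is not given here, so this number does not set the nested loci apart. In a bulk sample, fewer cells and less RNA per cell cannot be told apart. Each library is relative to its scaling, and with libraries scaled to RPL34, which shifts all THZ531 values by -0.49 on the log2 scale, 400 were called up and 386 down.

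The minimum value itself favours loci that are high in a single group. Only 646 of the 1260 reached 10 in all 6 libraries, whereas 365 reached it in all THZ531 libraries but fewer than 3 of the DMSO libraries, and 157 the reverse. A locus that enters through 1 group had to differ, so the counts above are a description and support nothing on their own. Among the 646, 199 were called up (30.8%) and 138 down (21.4%), and of all 15376 loci at 10 or more in every library 14.2% were called up and 23.0% down. Just inside the minimum were loci in RSBN1 and PTPN14, with 10.1 in the library that decided their inclusion, and just outside were loci in ZDHHC21 and GUSBP3, with 9.57. Of the 1260 loci, 19 had no read in any DMSO library, and 0 were without reads in all 3 THZ531 libraries.

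Loci on the 2 strands were called in different proportions. Of the 809 same-strand loci, 423 were called up (52.3%) and 129 down (15.9%), with a median log2 fold change of 1.01. Of the 291 opposite-strand loci, 45 were called up (15.5%) and 84 down (28.9%), with a median of -0.15. Among loci at 10 or more in all 6 libraries, the counts were 155 up and 73 down of 389 on the same strand and 22 up and 42 down of 164 on the opposite strand. Same-strand loci with an adenine run after the end were called up in 52.7% of cases, and those without in 51.6%. Among loci at 10 or more in all 6 libraries the shares were 34.7% of 196 with a run, 45.1% of 193 without, and 55.5% of 110 with a hexamer and no run. With neither feature the share was 31.3% of 83, and with both 18.2% of 11. The part of adenine runs in these counts was not tested. Under scaling to RPL34 the same-strand counts were 347 up and 195 down, and the opposite-strand counts 24 up and 121 down. The summed value of the same-strand loci lay between 66866 and 72718 in DMSO and between 115110 and 123850 in THZ531, whereas the opposite-strand sum lay between 19297 and 20981 and between 17452 and 18668. Per kilobase, the median same-strand locus stood at 3.75% to 4.61% of the exonic level of its host in the DMSO libraries and at 9.38% to 10.3% in the THZ531 libraries (772 pairs with a host mean of at least 100). These sums and ratios include loci that met the minimum through a single group, more often THZ531, so part of the difference follows from the selection. They were not taken over loci at 10 or more in all 6 libraries.

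PAX8, a transcription factor that marks the Müllerian lineage, held a single nested locus (GSHG0025800, chr2:113274136-113275706, minus strand) in intron 2 of 11. Its values were 121, 180.0 and 169 in DMSO and 1449.7, 1538 and 1419.8 in THZ531. In the same libraries PAX8 itself had 10645, 11535 and 11636 reads in DMSO and 1184, 1161 and 1380.0 in THZ531. All 3 THZ531 libraries lay above all DMSO libraries at the locus and below them at the host, and the locus ended with more normalised reads than the gene around it. The difference between locus and host on the log2 scale rose by 6.43 (SE 0.18, adjusted p = 5.1e-05, limma over 2263 nested pairs).

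EGFR, the epidermal growth factor receptor, showed a locus and host apart in the same way. The locus in its first intron (GSHG0039461, chr7:55025866-55027975, plus strand) had 22.2, 20.4 and 27.1 in DMSO and 151, 148 and 131 in THZ531. The EGFR row fell from 4767, 4642 and 4323 to 841, 892 and 919. No library of either group overlapped the other group. The locus-to-host difference rose by 4.95 (SE 0.20, adjusted p = 6.7e-05, limma), although the locus stayed well under its host.

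CUL1, the scaffold of SCF ubiquitin ligases, carried a locus 403 bases into an intron of 23713 bases, intron 2 of 21 (GSHG0040038, chr7:148730666-148731562, plus strand). It measured 141, 147 and 127 in DMSO and 2227, 2206 and 2081 in THZ531, a log2 fold change of 3.97 (SE 0.09, adjusted p = 1.6e-14, limma). CUL1 fell from 6463, 6176 and 6753 to 2175, 2254 and 2436. After treatment both locus and host lay between 2081 and 2436 in every library. EHD4, an ATPase of endocytic recycling, and SLC25A12, a mitochondrial aspartate and glutamate carrier, completed the 5 pairs with the largest opposite movement. The EHD4 locus lay between 4.79 and 9.28 in DMSO and between 230.5 and 286 in THZ531. The SLC25A12 locus lay between 7.98 and 20.4 in DMSO and between 322 and 462 in THZ531. Both hosts fell, with log2 fold changes of -0.59 (SE 0.04) and -0.69 (SE 0.07), but neither was called under upper-quartile scaling (-0.47 and -0.57).

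**Figure D2:**
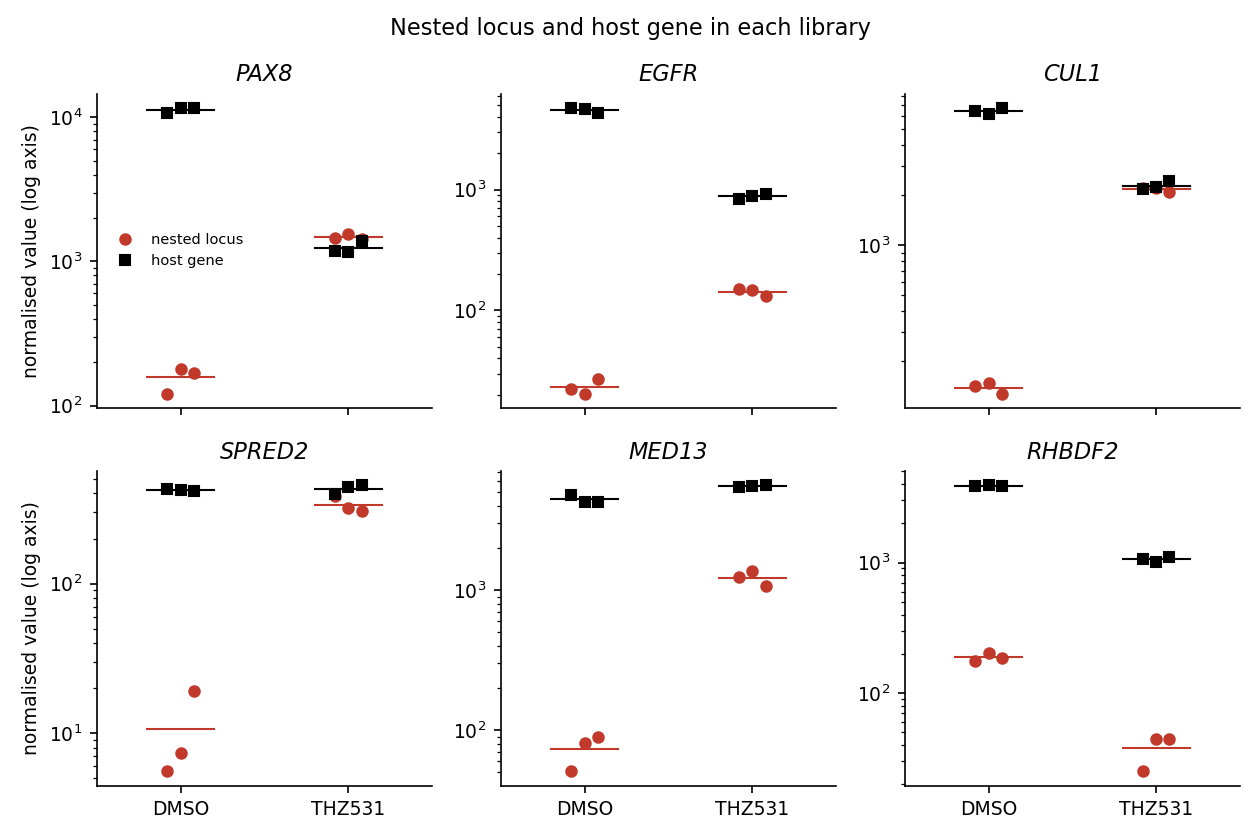
Normalised value on a log axis for the nested locus (red circles) and its host gene (black squares) in each of the 3 DMSO and 3 THZ531 libraries, with a line at each mean. The PAX8, EGFR and CUL1 loci rose while the host fell, and the SPRED2 and MED13 loci rose in hosts whose change was under 1.5-fold. The RHBDF2 locus shown, 1 of 2 in that gene, fell with its host.

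The largest rises among loci with a mean of at least 100 and no overlap between groups were found in hosts that mostly changed little. The locus in YWHAZ, which encodes the 14-3-3 zeta protein, went from 4.76, 0 and 3.19 to 181, 344 and 176. In SHB, an SH2 domain adaptor, the locus went from 2.38, 3.71 and 6.38 to 223, 255 and 215, and in SPRED2, an inhibitor of RAS to MAPK signalling, from 5.56, 7.42 and 19.1 to 383, 322 and 306. The log2 fold changes were 6.27 (SE 0.56), 5.56 (SE 0.36) and 5.02 (SE 0.35), against 0.25, -0.35 and 0.03 in the hosts. At DMSO values this low the size of a fold change depends on the added 1. Further rises were those in PAFAH1B1, a regulator of dynein (values of 8.35 to 9.57 in DMSO and 218 to 249 in THZ531), NTF3, the neurotrophin-3 gene (12.0 to 27.8 and 338 to 401), and CRIM1, a transmembrane protein (6.35 to 27.1 and 176 to 225). The CRIM1 locus is assigned to the opposite strand of its host. A further GENCODE gene overlaps the SHB locus, and another the PAFAH1B1 locus. None of these 6 hosts passed the threshold of 1.5-fold, although SHB was called down when scaled to the same total (-0.59) or RPL34 (-0.84). The loci in YWHAZ, SHB and PAFAH1B1 were under 10 in every DMSO library and met the minimum only through THZ531. A rise, though not its size, was thus set by the selection, and these changes are a description. The same applies to the named loci in EHD4, MAP2K1, FGFR1, MSI2 and GOLGA4 and to the UBE3C locus without DMSO reads.

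The largest falls were seen in loci of RSF1, PLD3, CARD14, RHBDF2 and ZFHX3. The locus in RSF1, a chromatin remodelling factor, fell from 223, 297 and 282 to 11.3, 10.2 and 10.2 (log2 fold change -4.52, SE 0.26), and its host fell too (-0.62, SE 0.03), though not under upper-quartile scaling (-0.50). In PLD3, a lysosomal enzyme, the locus fell from 197, 240.3 and 248 to 22.7, 10.2 and 22.8, whereas the host had 12268, 11289 and 10456 in DMSO and 13451, 13255 and 13444 in THZ531. In RHBDF2, which encodes the iRhom2 protein, 1 of 2 nested loci went down with the host (log2 fold changes -2.33, SE 0.25, and -1.87, SE 0.05). The difference of -0.46 between them was not called (adjusted p = 0.21, limma). The other RHBDF2 locus stayed level (log2 fold change -0.003) and was not called. The loci in CARD14 and ZFHX3 lay on the opposite strand over annotated long noncoding RNAs, and CARD14 itself did not reach the minimum.

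Locus and host were often called differently. Of the 1083 host rows that passed the minimum, 141 were called up and 233 down, with 66 and 337 when scaled to the same total and 22 and 455 when scaled to RPL34. A locus called up lay in a host called down in 83 pairs (6.59%), and among pairs whose nested locus has a symbol the share was 3.39%. At 10 or more in all 6 libraries there were 31 such pairs among 646 (4.80%). With libraries scaled to RPL34 this count was 157, and with the same total it was 127, since more hosts were then called down. Over all 2263 nested pairs the share was 5.17%. The reverse, a locus called down in a host called up, occurred in 26 pairs, against 2.43% of all pairs and 2.89% of those with a named nested locus. In 341 pairs the locus was called up and the host was not called, and in 123 the locus was called down and the host was not. In 79 pairs both were called up and in 91 both down. The same counts over all pairs, or over pairs with a named nested locus, are not given here. They therefore do not set these loci apart. The locus-to-host difference, in which the scaling of a library nearly cancels, rose in 478 of 1260 pairs (37.9%) and fell in 197 (15.6%). Over all 2263 nested pairs 31.2% rose and 19.5% fell (50.7% called), and over the 1003 pairs with a named nested locus 22.8% rose and 24.3% fell (47.2% called). With the fit repeated on loci at 10 or more in all 6 libraries, 187 of 646 (28.9%) rose and 117 (18.1%) fell. Across 1220 loci the log2 fold changes of locus and host had a Pearson correlation of 0.16, as points that share libraries.

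**Figure D3:**
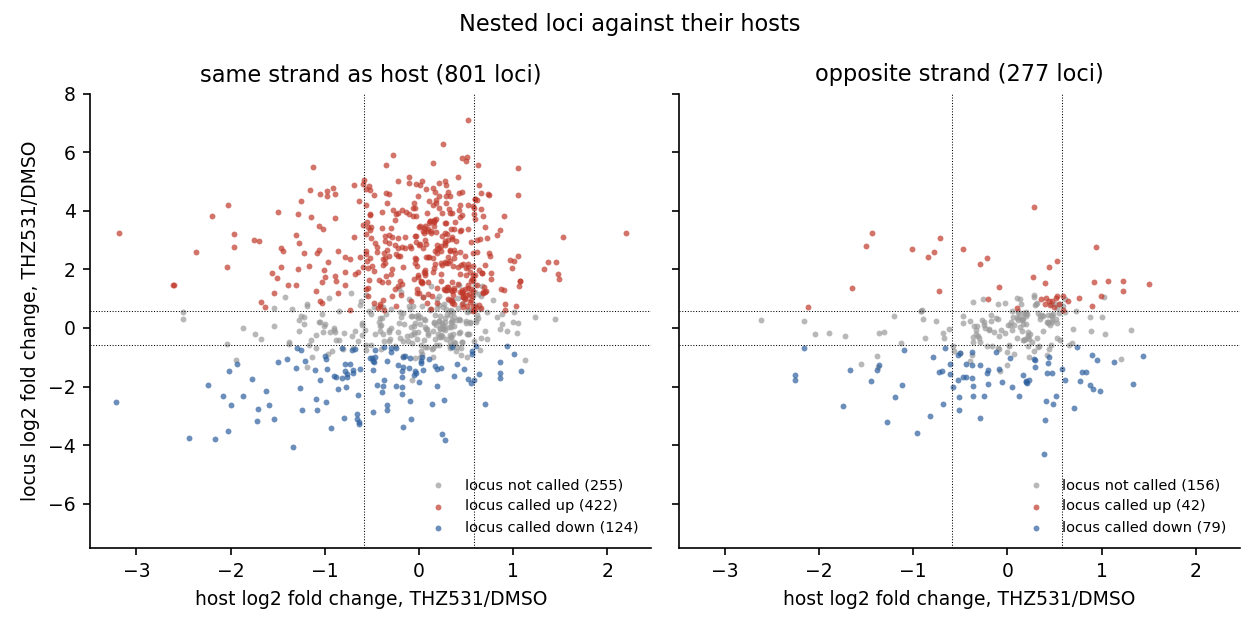
Log2 fold change (THZ531 over DMSO) of each nested locus against that of its host, for 801 same-strand and 277 opposite-strand loci whose host passed the minimum. Dotted lines mark 1.5-fold, red and blue points are loci called up (422 and 42) and down (124 and 79), and most red points on the same strand lie above hosts between the dotted lines.

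The largest falls inside a host called up were those in ARHGAP29, GET4 and FTX. The hosts ARHGAP29 and GET4 lost their call when scaled to the same total (log2 fold changes 0.40 and 0.47), and those and FTX when scaled to RPL34 (0.15, 0.22 and 0.37). The ARHGAP29 locus could not be given a strand and fell from 182, 147 and 193 to 20.2, 7.96 and 22.8, while the host rose from 11277 ± 409 to 17601 ± 494 (SD, n = 3). The GET4 locus, in a gene for the insertion of tail-anchored proteins, lies on the opposite strand and fell from 165 ± 23.8 to 24.2 ± 3.74, while the host had a log2 fold change of 0.71 (SE 0.06). The 3 highest loci, in UBE2Q2P2, PLEKHA7 and TXNRD1, had mean values above those of any other nested locus and overlap processed pseudogenes. Their log2 fold changes were 0.33, 0.32 and 0.45, under the threshold, and their reads may belong to the parent genes of the pseudogenes. Of the hosts the study itself examined, ATRIP shares a row with TREX1 and held an opposite-strand locus with 54.0, 36.2 and 42.3 in DMSO and 46.6, 33.0 and 34.1 in THZ531, which overlapped (adjusted p = 0.55, limma). RPTOR, MMS22L and CSTF3 held no nested locus above the minimum.

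Host length went with the share of loci that rose. In 4 equal groups by host length, 21.3% of loci were called up in hosts of 1259 to 31947 bases, then 38.4% and 50.3%, and 51.3% in hosts of 145452 bases or more. The share called down went from 25.7% to 22.5%, 18.0% and 15.9%. On the opposite strand the order differed, with 15.1%, 12.3%, 19.4% and 15.1% called up and 21.9%, 28.8%, 29.2% and 35.6% called down in 4 groups of their own. For opposite-strand loci at 10 or more in all 6 libraries the shares called down were 22.0%, 22.7%, 34.9% and 22.2%, without a steady order. Scaled to RPL34, 39 loci were up and 128 down in the shortest hosts and 96 and 100 in the next group. Among all nested loci at 10 or more in all 6 libraries the shares called up were 19.9%, 34.0%, 35.6% and 36.4%. Their shares called down were 23.1%, 22.3%, 18.2% and 20.7%, so the decline in falls was not steady there. By host level the shares were 29.5%, 41.3%, 45.7% and 44.8% called up, from the lowest to the highest group, and 33.7%, 20.6%, 15.2% and 12.7% called down. The Pearson correlation of the locus log2 fold change with the log2 host length was 0.23 across loci.

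Position within the gene and length of the intron also went with the calls. In 5 equal groups by position, from the 5ʹ to the 3ʹ end of the host, 59.3% of the first were called up and 9.76% down, and the shares called up in the next groups were 46.5%, 38.2%, 32.2% and 26.8%. In the last group as many were called down as up (66 and 66). Scaled to RPL34 the counts were 41 up and 94 down in the last group and 52 and 88 in the one before (79 and 61 as deposited), and scaled to the same total 54 and 81, and 64 and 71, so the direction near the 3ʹ end depends on the scaling. With 10 or more in all 6 libraries the shares called up ran 39.5%, 34.4%, 30.5%, 25.0% and 26.9%. These groups pool the strands. In 5 position groups of same-strand loci alone, 67.9% of the first and 38.3% of the last were called up. In that last group 62 were up and 37 down. At 10 or more in all 6 libraries 41.8% of the first same-strand group were called up, 44.9% of the second and 35.5% of the last. The decline from the 5ʹ end was thus not steady there. Among same-strand loci, placed in introns of the MANE transcript, those in introns of up to 6186 bases were called up in 29.7% of cases. In introns of 6210 to 12750 bases 45.3% were called up, in those up to 29174 bases 67.6%, and in longer introns 78.9%, with 3.51% called down. With 10 or more in all 6 libraries the 4 shares were 24.7%, 43.5%, 57.8% and 55.8%. Loci more than 20000 bases from the 5ʹ splice site were called up in 58 of 75 cases (77.3%), and the median log2 fold change there was 2.41. At 10 or more in all 6 libraries these were 17 of 29 (58.6%) and 1.29. Under scaling to RPL34, 36 loci were up and 62 down in the shortest introns, and 123 up and 8 down in the longest, so the direction in the shortest introns depends on the scaling. Host length, intron length, distance from the 5ʹ splice site and position are related to each other, and their parts were not separated.

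**Figure D4:**
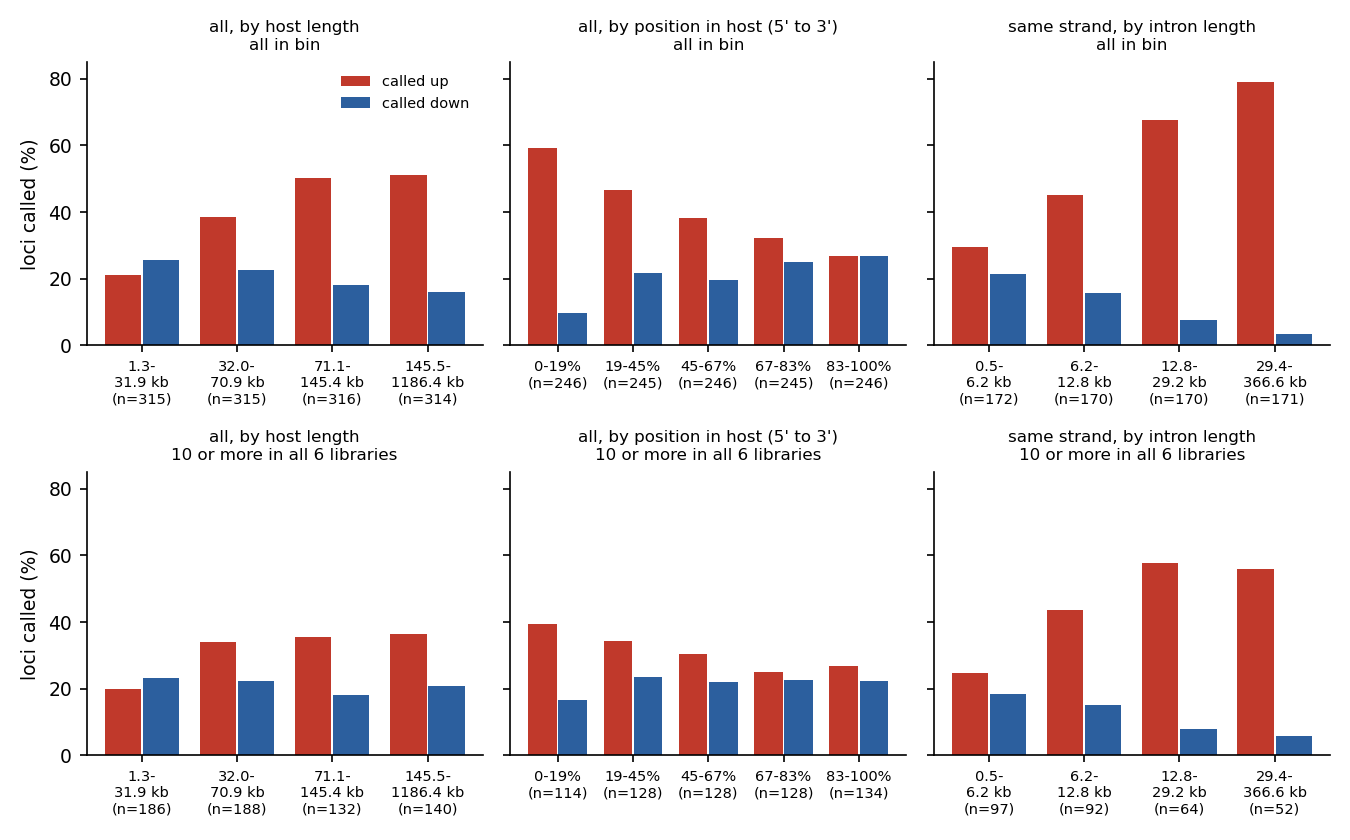
Percent of nested loci called up (red) and down (blue), by host length, by position within the host and, for same-strand loci, by length of the intron, with the number of loci under each pair of bars. The upper row shows each bin whole and the lower row the loci at 10 or more in all 6 libraries, and in both rows the share called up is lowest in the shortest hosts and introns (21.3% and 29.7% above, 19.9% and 24.7% below).

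Loci of hosts in signalling, chromatin and RNA processing are given by 7 lists of genes written by hand. Their counts share the effect of the minimum, and are to be read beside the 40.3% of nested loci called up and 20.6% called down, or 30.8% and 21.4% of those at 10 or more in all 6 libraries. For receptor tyrosine kinase, RAS and mTOR genes, 18 of 28 loci were called up and 5 down, but at 10 or more in all 6 libraries 3 up and 3 down of 9. MAP2K1, which encodes the kinase MEK1, held an exon-overlapping locus that went from between 6.38 and 7.94 to 142, 116 and 131. The FGFR1 locus went from 3.71 ± 3.31 to 151 ± 7.22 (SD, n = 3) inside a receptor gene that rose as well (log2 fold change 1.05, SE 0.09, and 0.56, not called, when scaled to RPL34). For transcription factors and chromatin regulators, 34 of 46 loci were called up and 2 down (13 and 2 of 22 at 10 or more in all 6 libraries). MED13, a subunit of the Mediator kinase module, had a locus that rose from 50.8, 81.7 and 89.4 to 1236, 1372 and 1077. GENCODE lists further genes over this locus. FOXK2, a forkhead factor, and INO80, the ATPase of a chromatin remodeller, had loci that rose from 19.2 ± 4.36 to 294 ± 63.9 and from 23.2 ± 3.73 to 372 ± 46.2 (SD, n = 3).

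For RNA processing and transcription elongation, 18 of 26 loci were called up and 0 down by limma, by edgeR and by DESeq2, and 11 up and 2 down under scaling to RPL34. At 10 or more in all 6 libraries 6 of 9 were called up. The locus in MSI2, an RNA-binding protein, rose from 6.35, 1.86 and 3.19 to 110.8, 92.1 and 96.7, and that in MBNL1, a splicing regulator, from 8.84 ± 1.99 to 144 ± 22.2 (SD, n = 3). In YTHDC1, a reader of methylated adenosine, the locus rose from 168, 191 and 170.0 to 442, 417 and 354, and the host had a log2 fold change of 0.46. For DNA repair and checkpoint genes, 3 of 11 loci were called up and 2 down (2 and 1 of 5 at 10 or more in all 6 libraries), and 5 were down with libraries scaled to RPL34 or to the same total, so this list has no direction that holds. POLH, the translesion DNA polymerase eta, held a locus that rose from 59.5, 109 and 75.8 to 297, 409 and 315 while the host fell from 333 ± 34.9 to 120.4 ± 16.0 (SD, n = 3). The FAN1 locus, in a DNA repair nuclease, fell with its host (log2 fold changes -1.42, SE 0.14, and -0.70, SE 0.11), which was not called under upper-quartile scaling (-0.58).

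For ubiquitin ligases and related genes, 10 of 19 loci were called up and 3 down (7 and 2 of 13 at 10 or more in all 6 libraries). BIRC6, an inhibitor of apoptosis with ubiquitin-conjugating activity, had a locus that rose from 24.7 ± 4.51 to 318 ± 26.2 (SD, n = 3), and the opposite-strand locus in FBXO25, an F-box protein, fell from 251 ± 16.7 to 86.6 ± 3.39. For genes of the cytoskeleton, of adhesion and of their regulation, 17 of 42 were called up (40.5%) and 8 down, and at 10 or more in all 6 libraries 3 were up and 4 down of 17, so no direction holds. ITGB5, an integrin subunit, MYO1E, a myosin, and SEPTIN9 held loci with log2 fold changes of 4.89 (SE 0.42), 3.84 (SE 0.37) and 3.20 (SE 0.38). For membrane trafficking, 23 of 35 were called up and 5 down (8 and 1 of 13 at 10 or more in all 6 libraries). GOLGA4, a golgin, held a locus that went from 3.18, 0 and 4.79 to 80.6, 122 and 110.4, VPS53, a tethering subunit, a locus that went from 53.0 ± 5.57 to 356 ± 2.07 (SD, n = 3), and TBC1D8 a locus with a log2 fold change of 2.05 (SE 0.34). Another locus in TBC1D8 was called down (log2 fold change -2.15), and another in GOLGA4 was not called (0.33). The TRAPPC12 locus, inside a host that fell (log2 fold change -2.07, SE 0.14), had a log2 fold change of -1.07 (SE 0.36), which was not called without THZ531 replicate 3 (-0.61). These lists hold members already known from earlier results of the same data, and their counts were not tested against other loci.

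Several loci in 1 gene did not always move together. Among 62 hosts with at least 2 called loci, 39 had them all up, 11 all down and 12 in both directions. UBE3C, a ubiquitin ligase, held 4 loci on its own strand. The first, in intron 13 of 22 (GSHG0040137, chr7:157208961-157209353), had 0 reads in each DMSO library and 149.9, 153 and 113 in THZ531, which is at least 55.0-fold higher against a floor of 3 reads per library. Those in intron 18 rose from 237 ± 12.8 to 1007 ± 52.3 and from 170.0 ± 22.2 to 778 ± 18.5 (SD, n = 3), and the first of these overlaps an annotated exon. The last, in intron 22, fell from 63.7 ± 11.6 to 18.6 ± 6.35, while UBE3C itself had a log2 fold change of 0.52 (SE 0.05), under the threshold except with upper-quartile scaling (0.64).

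FTX, a long noncoding RNA gene of the X inactivation centre, held 4 loci on its own strand. Along the gene, the first had 68.3 ± 9.49 in DMSO and 66.7 ± 6.62 in THZ531 (SD, n = 3) and was not called. The next 3 fell, with log2 fold changes of -1.55 (SE 0.35), -1.17 (SE 0.20) and -1.70 (SE 0.23). The FTX row rose from 117, 121 and 69.4 to 194, 202 and 150.2. In PCGF3, a Polycomb subunit, 2 opposite-strand loci over the annotated antisense RNA fell (log2 fold changes -1.96, SE 0.40, and -2.32, SE 0.31), and neither another opposite-strand locus nor the same-strand locus was called. In SUZ12P1, a pseudogene, 3 of 4 loci were called up, by 1.62 to 2.57 on the log2 scale, and the other had 7.43 ± 3.31 and 18.8 ± 11.1 (SD, n = 3). SLC25A51, a mitochondrial carrier gene, held the most, 5 loci without a strand. Of these, 4 were 30 to 44 bases long, with means between 9.06 and 30.8 in either group, and were not called. The other had 452, 483 and 458 in DMSO and 332.5, 292 and 308 in THZ531, a log2 fold change of -0.58 (SE 0.10) just short of the threshold, which it passed with libraries scaled to the same total (-0.82) or to RPL34 (-1.07).

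The libraries held 53054048 to 70986130 reads counted on loci, and nested loci made up 0.431% to 0.443% of the summed values in DMSO and 0.517% to 0.534% in THZ531. Without the 5 highest loci the shares were 0.203% to 0.214% in DMSO and 0.268% to 0.284% in THZ531. Both include loci that met the minimum through a single group. All 12 markers of serous ovarian carcinoma and epithelium passed the minimum, with sums of 512204 to 526517 in DMSO and 643015 to 658385 in THZ531. PAX8, which is among the 12, fell (log2 fold change -3.2), so the sum does not give the direction of each marker. The values summed over all loci were also higher in THZ531 (6.59e+07 to 6.68e+07) than in DMSO (5.54e+07 to 5.66e+07). Of the other lists, 3 of 6 fibroblast markers, 3 of 6 leukocyte markers and 4 of 4 endothelial markers passed, and MS4A1 and CD3E were at 0. The fibroblast sum lay between 1659 and 1914 in DMSO and between 3176 and 3517 in THZ531, the leukocyte sum between 527 and 591 and between 517 and 598, and the endothelial sum between 231 and 286 and between 308 and 419.8. The part of other cells in the results was not tested.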

How the data were processed

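PolyA plus RNA-seq of 3 DMSO and 3 THZ531 cultures was analysed from a single deposited table. STAR alignment to hg38 and counting on FAST DB genes were done by the authors. They deposited a signal normalised with DESeq2, in which the counts of a library share 1 size factor. STAR 2.7.5a is named in the submitters' processing notes. The kit marks strand, but whether counting used it, and how reads over a locus and its host were assigned, is not given in the sources used here. In every library 100% of the deposited values were whole multiples of 1 read (tolerance 0.01), so counts were recovered, 53054048 to 70986130 per library. At this depth, loci near the minimum of 10 rest on few reads.

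Values were tested as log2(value + 1) with limma 3.58.1 (trended variance, R 4.3.3) over the 17568 loci that reached 10 in 3 or more libraries, without covariates, and p-values were adjusted by Benjamini-Hochberg over all of them. The locus-to-host difference, log2(locus + 1) minus log2(host + 1) per library, was tested likewise over 2263 pairs. The strand of a locus was taken from the nearest identifiers (at most 60 apart) with a GENCODE v44 strand that agreed and whose starts enclosed it. Introns are those of GENCODE v44 and of MANE transcripts, and sequences were read from hg38.

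Loci named are the 8 largest rises and 5 largest falls (adjusted p of at most 0.05, mean of at least 100, no overlap), the 5 and 3 largest opposite movements, the 3 highest, those in genes the study examined, those in the 3 hosts with most members (4 tied at 4 loci, so 5 hosts), and per gene list 3 up and 1 down. Some loci named by this rule are not reported here. The members and lists were chosen with earlier results of these data known. Alternatives were pseudocounts of 0.1 and 10, other minimums and scalings, a replicate block, edgeR 4.0.16 and DESeq2 1.42.0 on the recovered reads, subsets of members and leaving out each library. The fits were tested on simulated data. ATTAAA and adenine runs were added after the data had been seen.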

Additional observations from a re-analysis of the deposited data

How the results depend on the processing

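Without a minimum 1290 of 4180 nested loci were called, 859 up and 431 down, with 362 hosts up and 689 down (1051 called), 1411 differences called (1026 rose, 385 fell) and 154 loci up in a host down. With a minimum of 50 these were 348 of 504 loci, 232 up and 116 down, 153 hosts (60 up, 93 down), 315 differences (219 rose, 96 fell) and 37. With 10 in all 6 libraries and the fit repeated they were 348 of 646 loci, 205 up and 143 down, 189 hosts (72 up, 117 down), 304 differences (187 rose, 117 fell) and 31. These alternatives change how many loci are tested. Loci wholly in introns gave 478 called with 116 down, 227 hosts (78 up, 149 down) and 439 differences of which 84 fell, and same-strand loci 129 down, 93 hosts up and 94 differences that fell. At a fold change of 2, 171 hosts (37 up, 134 down) and 45 loci up in a host down were called. Scaling to the same total gave 66 hosts up and 127 loci up in a host down, and to RPL34 22 and 455 hosts up and down and 157, against 141, 233 and 83. Other alternatives stayed within 1.5 times. Leaving out 1 library gave 732 to 748 loci called, 364 to 385 hosts, 635 to 657 differences and 75 to 90 loci up in a host down. Named loci kept direction and side of the threshold in 884 comparisons, 9 gained a call and 3 lost it. No value reversed.

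No pairing by replicate number was visible in the values, where deviations of same-numbered libraries correlated between -0.0393 and 0.0186. These values cannot tell whether same-numbered cultures were set up together. With the replicate block 762 loci, 374 hosts and 660 differences were called. edgeR and DESeq2 called 755 and 737 loci and were not run for the difference. With 3 cultures a group, low loci carry wide errors, and p-values measure only the spread between these cultures.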
